A study of Mus musculus with 12 samples.

Results

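The macrophage genes of the mouse scar are described here, with 10 members in all. They were taken by symbol from the 35976 genes that each library lists, and all 10 are among the 18853 genes that passed the filter on low counts and were tested. Cd68, Adgre1 and Lyz2 are general markers of the lineage, Mrc1, Cd163 and Folr2 mark tissue-resident and scavenging macrophages, Cx3cr1 is a chemokine receptor, and Spp1, Gpnmb and Trem2 mark the lipid-associated macrophages that are also known from fibrotic scars. The rule used symbols only and no measured value, but the members were chosen with earlier results of these data known.

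Bulk RNA-seq was done on scars of the back skin of male mice aged 8 to 12 weeks. A 1.5 cm wound was made in all mice and a plastic device was placed over it on day 6. Mice of the traction groups had the device lengthened by 1 mm each day, 8 mm in all, whereas sham mice wore the same device at fixed length. Each treatment was given to Tem1WT/WT and to Tem1lacZ/lacZ mice, with 3 libraries in each of the 4 groups. In Tem1lacZ/lacZ mice the only exon of Tem1 (Cd248, the endosialin gene) is replaced by the lacZ reporter in every cell of the body, so the line is both deficient and a reporter, and it had been backcrossed to C57BL/6J. The loss of Tem1 is therefore not limited to fibroblasts or to macrophages. Part of each scar was used for RNA. The study's methods give 3 mouse scars per group, so the spread between libraries is a spread between scars.

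Macrophages in a wound come from cells that live in the skin and from blood monocytes that enter after injury, and CSF1 acting through its receptor keeps both alive. They remove dead cells and matrix, and in fibrotic tissue a state rich in osteopontin (Spp1), glycoprotein NMB (Gpnmb) and the lipid receptor TREM2 is known to lie close to matrix-making fibroblasts. Several of these genes are not private to macrophages: Spp1 is also made by osteoblasts, epithelia and activated stromal cells, Gpnmb by melanocytes and osteoclasts, and Lyz2 by neutrophils.

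The promoters of the members whose libraries did not overlap between sham and traction in Tem1WT/WT mice are shown because the comparison below turns on them. Each is the 250 bases before the RefSeq start of the gene in build GRCm38.p6, printed 5′ to 3′ on the strand of the gene, and capitals mark matches to the letters TGANTCA (AP-1) or GAGGAA (the core bound by PU.1, the myeloid factor encoded by Spi1), on either strand. The letters CACGTG (an E-box) were searched as well and were not in these windows. Spp1 lies at chr5:104435111-104441053, Cd68 at chr11:69664213-69666170 and Gpnmb at chr6:49036518-49058182. The first window is chr5:104434861-104435110 on the plus strand, the second is chr11:69666171-69666420 on the minus strand and the third is chr6:49036268-49036517 on the plus strand.
Spp1: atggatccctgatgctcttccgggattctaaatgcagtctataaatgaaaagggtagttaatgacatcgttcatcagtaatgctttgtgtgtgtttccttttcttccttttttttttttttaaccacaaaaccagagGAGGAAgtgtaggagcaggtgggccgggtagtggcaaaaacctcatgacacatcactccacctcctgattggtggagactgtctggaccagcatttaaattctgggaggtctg
Cd68: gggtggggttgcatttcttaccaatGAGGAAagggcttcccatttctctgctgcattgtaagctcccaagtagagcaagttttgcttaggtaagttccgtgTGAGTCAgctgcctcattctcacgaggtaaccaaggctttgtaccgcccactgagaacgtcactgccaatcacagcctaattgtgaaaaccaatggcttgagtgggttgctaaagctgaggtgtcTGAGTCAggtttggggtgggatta
Gpnmb: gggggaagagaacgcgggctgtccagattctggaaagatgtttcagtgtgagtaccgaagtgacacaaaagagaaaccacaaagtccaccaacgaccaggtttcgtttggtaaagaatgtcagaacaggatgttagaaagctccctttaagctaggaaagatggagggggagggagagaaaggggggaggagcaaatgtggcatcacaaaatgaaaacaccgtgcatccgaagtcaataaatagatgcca
The Spp1 window held 1 match to GAGGAA, which began 113 bases before the start. The Cd68 window held 1 match to GAGGAA at 225 bases and 2 matches to TGANTCA at 149 and 24 bases before the start. The Gpnmb window held none of the 3 motifs. Bases shortly after the Gpnmb window were not found in its annotated transcripts, so this window may not precede an annotated start. Of 32841 promoter windows of the same length, 6.75% held TGANTCA, 23.3% held GAGGAA and 6.02% held CACGTG. Of the 9 members with a RefSeq promoter entry, 4 held GAGGAA (Spp1, Cd68, Mrc1 and Trem2) and 3 held TGANTCA (Cd68, Trem2 and a second start of Folr2). Members were counted by any of their windows, whereas the percentages are per window, so the numbers are not alike. Spp1 also has a second start, whose window (chr5:104435942-104436191) held none of the 3 motifs. A match describes the letters only. Adgre1 had no entry.

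Total counts ran from 41536788 to 64644293 per library (median 48173798), so every member was counted at least 76 times in each library. Values are library-scaled read counts (CPM) after TMM normalization, and fold changes are from the edgeR quasi-likelihood test with Benjamini-Hochberg adjustment over all 18853 genes. Tem1 itself was at 92.4 to 337 CPM in Tem1WT/WT and at most 0.248 CPM in Tem1lacZ/lacZ libraries. The tissue held the markers of scarred skin, with summed fibroblast markers of 23907 CPM or more and keratinocyte markers of 10281 CPM or more in every library. It also held skeletal muscle, whose 8 markers summed to between 198 and 8943 CPM. Traction replicate 1 of Tem1WT/WT stood apart: its 12 neutrophil markers summed to 6889 CPM, against 630 and 302 CPM in the other two libraries of its group and 64.4 to 583 CPM in the remaining 9. Calls that are lost without it are named beside the results or in the paragraph on the list calls. In these bulk samples, fewer cells of a type and less RNA per cell cannot be told apart.

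The other members lie at chr17:57358581-57483529 (Adgre1), chr2:14229414-14332023 (Mrc1), chr6:124304636-124330529 (Cd163), chr17:48346401-48352276 (Trem2), chr7:101839988-101857190 (Folr2), chr9:120048683-120068296 (Cx3cr1) and chr10:117277541-117282272 (Lyz2) in GRCm38.p6. Counts were taken per gene, over its exons. Across the 12 libraries and per kilobase of annotated exon, Lyz2 (lysozyme) had the highest mean level of the members, at 1210.1 CPM per kb. Spp1 came next at 124 CPM per kb, but its group means ran from 22.8 to 346 CPM per kb. Mrc1 (87.1), Cd68 (82.3) and Adgre1 (55.8 CPM per kb) formed the middle, and the ranges of their group means overlapped from each to the next. Gpnmb (36.0), Folr2 (24.1) and Cd163 (19.4 CPM per kb) were lower, and the level was lowest for Trem2 at 4.52 and Cx3cr1 at 1.34 CPM per kb. No stretch of 150 bases, the read length, in the transcripts of 9 members was shared with another gene, including Lyz2 and its neighbour Lyz1. In Spp1, 32 of 1958 such stretches (1.63%) were shared with the predicted gene Gm42793, and reads from them may have been left uncounted or split.

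**Figure D1:**
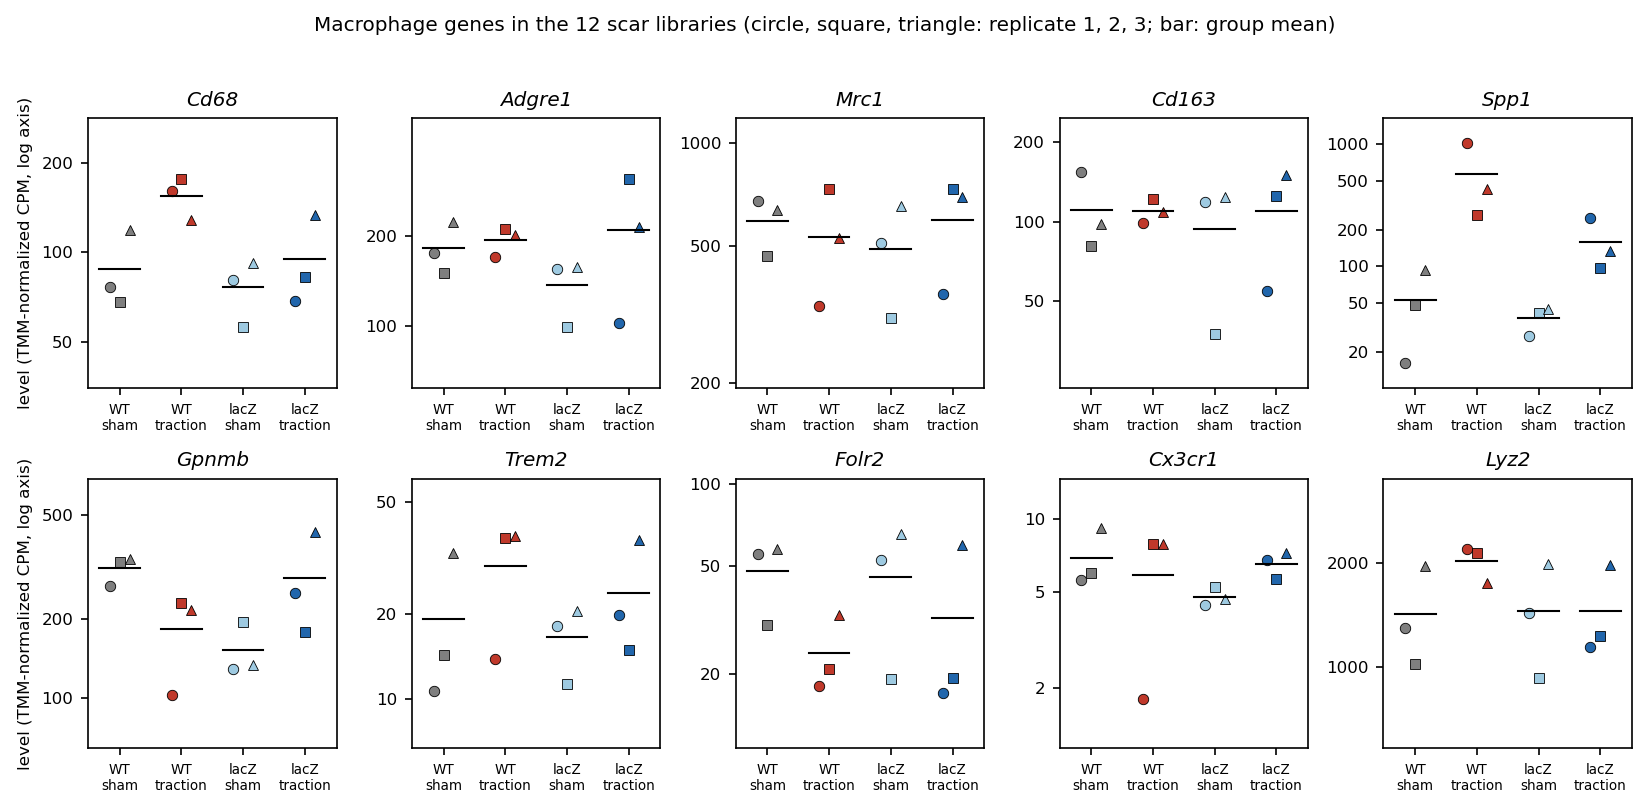
Level of each macrophage gene in the 12 libraries, in TMM-normalized CPM on a log axis, with groups on the x axis, circle, square and triangle for replicates 1, 2 and 3, and a bar for the mean of the 3 libraries. Spp1 was between 262 and 1019 CPM in the Tem1WT/WT traction libraries and between 16.1 and 93.5 CPM in their sham libraries, whereas Mrc1, Cd163 and Adgre1 overlapped between all pairs of groups compared.

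With traction in Tem1WT/WT mice, Spp1 was the only macrophage gene of the 10 that passed the test, and it rose 10.9-fold. The share of members called (1 of 10) stands beside 9.15% of all genes tested, so the set as a whole was called about as often as the background. The level of Spp1, a secreted phosphoprotein that binds integrins and CD44, was 16.1, 48.0 and 93.5 CPM in the sham libraries and 1019, 262 and 429 CPM in the traction libraries. Every traction library was above every sham library. The mean level was 52.5 ± 38.9 CPM in sham and 570 ± 397 CPM in traction scars (SD, n = 3 each). The log2 fold change was 3.44 (SE 0.68, 95% interval 1.93 to 4.95, edgeR adjusted p = 0.0288).

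The call of Spp1 depended on single libraries, whereas its direction did not. Without traction replicate 1, which held the highest Spp1 and the neutrophil markers given above, the log2 fold change was 2.70 and the adjusted p was 0.0508. Without sham replicate 1 the values were 3.01 and 0.116, and without sham replicate 2 they were 3.39 and 0.0907. Leaving out sham replicate 3 of Tem1lacZ/lacZ, which is not in the comparison but shares the estimate of spread, gave 3.44 and 0.0512. With only the 6 libraries compared, the log2 fold change was 3.44 and the adjusted p was 0.0852, and no gene of the genome was called. Over 19 alternatives the log2 fold change stayed between 2.70 and 4.15, and the adjusted p ran from 3.57e-06 to 0.116 and was under the threshold in 14.

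The general markers of the lineage gave smaller values. Cd68, a lysosomal glycoprotein of phagocytes, was at 76.2, 67.8 and 119 CPM in the sham libraries and 161, 176 and 128 CPM in the traction libraries. The libraries did not overlap, although sham replicate 3 came close to traction replicate 3. The log2 fold change of Cd68 was 0.82 (SE 0.29, 95% interval 0.18 to 1.47), with an unadjusted p of 0.0173 and an edgeR adjusted p of 0.088. DESeq2 gave an adjusted p of 0.0451 for the same comparison, the only alternative of 19 under the threshold. DESeq2 called 2 of the 10 members there (Cd68 and Spp1), beside 4047 of all genes, where edgeR called 1725. Lyz2 was at 1303, 1023 and 1962 CPM in sham and 2201, 2146 and 1753 CPM in traction libraries, and 1 sham library lay within the traction range (log2 fold change 0.51, SE 0.33, adjusted p = 0.318). Adgre1, which encodes the F4/80 antigen, was at 176, 150.3 and 223 CPM in sham and 169.9, 212 and 201 CPM in traction libraries, which overlapped throughout (log2 fold change 0.09, SE 0.34, adjusted p = 0.884).

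The markers of resident and scavenging macrophages did not pass the test. Mrc1, the mannose receptor CD206, was at 679.8, 468 and 637 CPM in sham and 335, 737 and 529.6 CPM in traction libraries (log2 fold change -0.16, SE 0.36, adjusted p = 0.802). Cd163, the haemoglobin scavenger receptor, was at 154, 81.0 and 97.5 CPM in sham and 98.7, 122 and 109 CPM in traction libraries (log2 fold change -0.01, SE 0.45, adjusted p = 0.991). For both genes the groups overlapped, and the signs of these near-zero values, like that of Adgre1, turned under other settings. Folr2, a folate receptor of resident macrophages, was at 55.1, 30.3 and 57.4 CPM in sham and 18.0, 20.8 and 32.8 CPM in traction libraries. Only traction replicate 3 reached the sham range, just above sham replicate 2 (log2 fold change -0.996, SE 0.54, 95% interval -2.20 to 0.20, adjusted p = 0.233). Cx3cr1, the fractalkine receptor of monocytes and many resident macrophages, was at 5.58, 5.99 and 9.17 CPM in sham and 1.81, 7.86 and 7.89 CPM in traction libraries. Its lowest value was in traction replicate 1, and without that library the log2 fold change turned from -0.24 (adjusted p = 0.744) to 0.17 (adjusted p = 0.688).

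The other markers of lipid-associated macrophages among the members, Gpnmb and Trem2, did not pass the test, and their values had opposite signs. Gpnmb, a membrane glycoprotein of lysosome-rich cells, was at 269, 331 and 341 CPM in sham and 103, 230.2 and 217 CPM in traction libraries. All traction libraries were below all sham libraries, with the lowest in traction replicate 1. The log2 fold change of Gpnmb was -0.78 (SE 0.36, 95% interval -1.56 to 0.01, adjusted p = 0.162), and without traction replicate 1 it was -0.51 (adjusted p = 0.342). Trem2, a receptor for lipids and apoptotic cells, was at 10.7, 14.3 and 32.9 CPM in sham and 13.9, 37.4 and 37.8 CPM in traction libraries, which overlapped (log2 fold change 0.62, SE 0.50, adjusted p = 0.425).

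Counted over the set, 3 of 10 members did not overlap between the groups (Spp1 and Cd68 higher, Gpnmb lower), beside 35.7% of all genes tested, and 2 of 10 had an unadjusted p under 0.05 (Spp1 and Cd68), beside 31.4%. Both shares were near or below the background. Of the 10 log2 fold changes 5 were positive, with a median of 0.04 beside -0.01 over all genes tested.

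**Figure D2:**
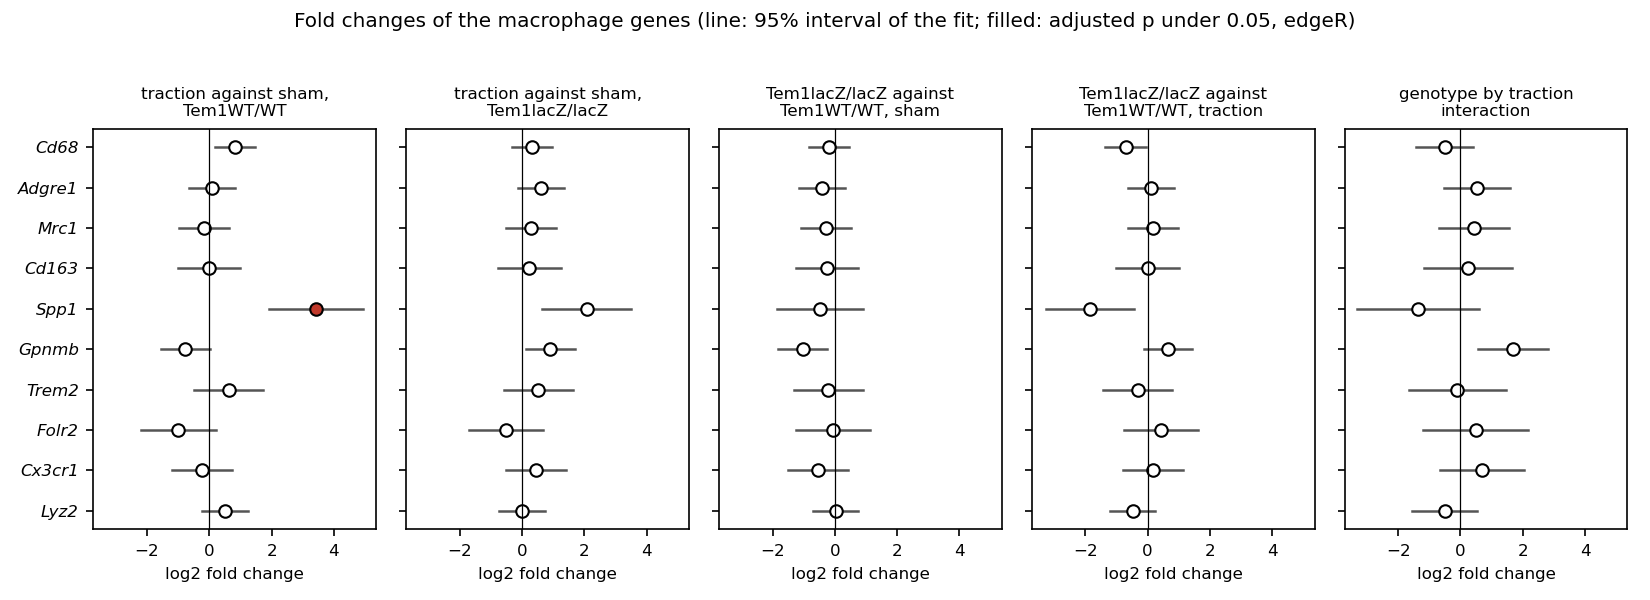
Log2 fold changes of the 10 macrophage genes (x axis) in the 5 comparisons, 1 panel each, with lines for the 95% interval of the edgeR fit and a filled point where the adjusted p was under 0.05. The filled point is Spp1 with traction in Tem1WT/WT mice at 3.44, and Gpnmb lies left of 0 with traction in Tem1WT/WT mice (-0.78) and right of 0 in Tem1lacZ/lacZ mice (0.91).

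With traction in Tem1lacZ/lacZ mice, no member passed the test (0 of 10 in edgeR, beside 0% of all genes), and DESeq2 and limma-voom called none either. Spp1 was at 26.8, 41.7 and 44.3 CPM in the sham libraries and 248, 96 and 133 CPM in the traction libraries. Again every traction library was above every sham library, by a smaller factor than in Tem1WT/WT mice. The log2 fold change of Spp1 was 2.08 (SE 0.65, 95% interval 0.65 to 3.51, unadjusted p = 0.00842, adjusted p = 0.598). Gpnmb was at 129, 196 and 134 CPM in sham and 252, 179 and 431 CPM in traction libraries, where traction replicate 2 lay within the sham range (log2 fold change 0.91, SE 0.36, unadjusted p = 0.0266, adjusted p = 0.598). Without traction replicate 3 of this genotype the log2 fold change of Gpnmb was 0.49 (adjusted p = 0.991). Spp1 and Gpnmb were the 2 members of 10 with an unadjusted p under 0.05, beside 8.12% of all genes.

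The remaining members overlapped between sham and traction in Tem1lacZ/lacZ mice, except Cx3cr1. Cx3cr1 was at 4.40, 5.24 and 4.66 CPM in sham and 6.75, 5.63 and 7.26 CPM in traction libraries, a separation of the libraries with a small fold change (log2 0.46, SE 0.44, adjusted p = 0.783). With Spp1 it made 2 of 10 members that did not overlap, beside 12.9% of all genes. Cd68 was at 80.8, 55.9 and 92.2 CPM in sham and 68.6, 82.5 and 133 CPM in traction libraries (log2 fold change 0.31, adjusted p = 0.778). Adgre1 had its highest value of all 12 libraries, 311 CPM, in traction replicate 2 of this genotype, while traction replicate 1 was at 102 CPM (log2 fold change 0.61, adjusted p = 0.648). Folr2 was at 52.2, 19.1 and 65.2 CPM in sham and 17.0, 19.3 and 59.7 CPM in traction libraries, the widest spread within groups among the resident markers (log2 fold change -0.51, adjusted p = 0.805). The other 4 members, Mrc1, Cd163, Trem2 and Lyz2, had log2 fold changes from -0.0028 to 0.52.

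Between the genotypes in sham scars, no member passed the test (0 of 10 in edgeR, beside 0.0106% of all genes, and 0 of 10 in DESeq2 and limma-voom). Gpnmb was lower in every Tem1lacZ/lacZ sham library (129, 196 and 134 CPM) than in every Tem1WT/WT sham library (269, 331 and 341 CPM). Its log2 difference was -1.04 (SE 0.36, 95% interval -1.82 to -0.25, unadjusted p = 0.0143, adjusted p = 0.409), and it was the only member of 10 with an unadjusted p under 0.05, beside 11.7% of all genes. Cx3cr1 was the other member whose libraries did not overlap, at 4.40 to 5.24 CPM against 5.58 to 9.17 CPM (log2 difference -0.54, SE 0.44, adjusted p = 0.629), so 2 of 10 did not overlap, beside 26.8% of all genes. Spp1 overlapped, at 37.6 ± 9.41 CPM in Tem1lacZ/lacZ and 52.5 ± 38.9 CPM in Tem1WT/WT sham scars (SD, n = 3 each). The remaining 7 log2 differences lay between -0.42 and 0.03.

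Between the genotypes under traction, no member passed the edgeR test (0 of 10, beside 0.106% of all genes). Limma-voom called none of the 10, beside 16 of all genes. DESeq2 called Spp1 alone (1 of 10), beside 2295 of all genes, where edgeR called 20. Spp1 was at 248, 96 and 133 CPM in the Tem1lacZ/lacZ traction libraries and 1019, 262 and 429 CPM in the Tem1WT/WT traction libraries. The groups did not overlap, although the highest Tem1lacZ/lacZ library and the lowest Tem1WT/WT library were close. The log2 difference of Spp1 was -1.84 (SE 0.64, 95% interval -3.26 to -0.43, unadjusted p = 0.0153, edgeR adjusted p = 0.123), and DESeq2 gave -1.86 with an adjusted p of 0.03. Without traction replicate 1 of Tem1WT/WT the log2 difference was -1.09 and the adjusted p was 0.305. It was the 1 member of 10 that did not overlap, beside 26.6% of all genes.

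Cd68 under traction was at 68.6, 82.5 and 133 CPM in Tem1lacZ/lacZ and 161, 176 and 128 CPM in Tem1WT/WT libraries, where replicate 3 of the former was above replicate 3 of the latter (log2 difference -0.71, SE 0.29, unadjusted p = 0.0341, adjusted p = 0.161). With Spp1 it made 2 of 10 members with an unadjusted p under 0.05, beside 26.1% of all genes. Gpnmb was at 252, 179 and 431 CPM in Tem1lacZ/lacZ against 103, 230.2 and 217 CPM in Tem1WT/WT traction libraries (log2 difference 0.65, SE 0.36, adjusted p = 0.266). Without traction replicate 3 of Tem1lacZ/lacZ, which had the highest value, the log2 difference of Gpnmb was 0.24 (adjusted p = 0.694), and without traction replicate 1 of Tem1WT/WT it was 0.40 (adjusted p = 0.486). For the other 7 members the groups overlapped, and their log2 differences lay between -0.49 and 0.42.

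The response to traction was then compared between the genotypes by the interaction term, the log2 fold change in Tem1lacZ/lacZ minus that in Tem1WT/WT mice. No member passed (0 of 10 in edgeR, beside 0% of all genes, and 0 of 10 in DESeq2 and limma-voom). Gpnmb had the largest interaction value of the set, 1.69 (SE 0.50, 95% interval 0.58 to 2.80), from log2 fold changes of -0.78 in Tem1WT/WT and 0.91 in Tem1lacZ/lacZ mice. Its unadjusted p was 0.00644, the only one of 10 under 0.05, beside 8.91% of all genes, and the adjusted p was 0.548. The interaction value of Spp1 was -1.36 (SE 0.88, 95% interval -3.31 to 0.59, adjusted p = 0.63), so the smaller fold change in Tem1lacZ/lacZ mice was not separable from the spread. It was -0.59 without traction replicate 1 and -2.07 without sham replicate 3 of Tem1WT/WT. The 5 comparisons share groups, so their values are not independent of each other.

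The order of the groups by mean Spp1 level was Tem1lacZ/lacZ sham, Tem1WT/WT sham, Tem1lacZ/lacZ traction and Tem1WT/WT traction, at 37.6, 52.5, 159 and 570 CPM. The first 2 overlapped, while the highest Tem1WT/WT sham library (93.5 CPM) was just below the lowest Tem1lacZ/lacZ traction library (96 CPM). For Gpnmb the order was Tem1lacZ/lacZ sham, Tem1WT/WT traction, Tem1lacZ/lacZ traction and Tem1WT/WT sham, at 153, 183, 288 and 314 CPM, and each neighbour in that order overlapped with the next. For Cd68 it was Tem1lacZ/lacZ sham, Tem1WT/WT sham, Tem1lacZ/lacZ traction and Tem1WT/WT traction, at 76.3, 87.7, 94.8 and 155 CPM, with overlap between each pair of neighbours. Mrc1 spanned 492 to 599 CPM and Cd163 spanned 93.4 to 111 CPM in group means, less than the SD within most groups.

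Set against Cd68 in the same library, the members differed in how closely they followed it. The log2 ratio of Lyz2 to Cd68 lay between 3.60 and 4.44 in all 12 libraries, the narrowest range of the 9 ratios. The log2 ratio of Spp1 to Cd68 was -2.24, -0.50 and -0.35 in Tem1WT/WT sham and 2.66, 0.57 and 1.75 in traction libraries, so the level of Spp1 exceeded that of Cd68 in all 3 traction libraries and in no sham library. The ratio of Folr2 to Cd68 was -0.47, -1.16 and -1.05 in sham and -3.17, -3.08 and -1.96 in traction libraries, which did not overlap. For Gpnmb it was 1.82, 2.29 and 1.52 in sham and -0.65, 0.38 and 0.77 in traction libraries, again without overlap. For Mrc1 it was 3.16, 2.79 and 2.42 in sham and 1.05, 2.06 and 2.05 in traction libraries, also without overlap. Nor was there overlap for Adgre1 (1.21, 1.15 and 0.904 in sham, 0.0757, 0.267 and 0.657 in traction libraries). Cx3cr1 (-3.77, -3.5 and -3.7, then -6.48, -4.49 and -4.02) and Lyz2 (4.1, 3.92 and 4.04, then 3.77, 3.6 and 3.78) were also apart. The ratios of Cd163 and Trem2 overlapped. With Adgre1 in place of Cd68, the ratios of Spp1, Folr2 and Gpnmb still did not overlap, but those of Mrc1, Cx3cr1 and Lyz2 did. In Tem1lacZ/lacZ mice the mean log2 ratio to Cd68 differed between traction and sham by 1.71 for Spp1, -0.864 for Folr2 and 0.558 for Gpnmb. It differed there by -0.00368 for Mrc1, 0.213 for Adgre1, 0.167 for Cx3cr1 and -0.263 for Lyz2. These ratios are descriptions of levels within a library and carry no test. Cd68 itself was higher in the Tem1WT/WT traction libraries, which lowers a ratio when the other gene stays level. The share of all genes whose ratio to Cd68 does not overlap was not calculated.

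**Figure D3:**
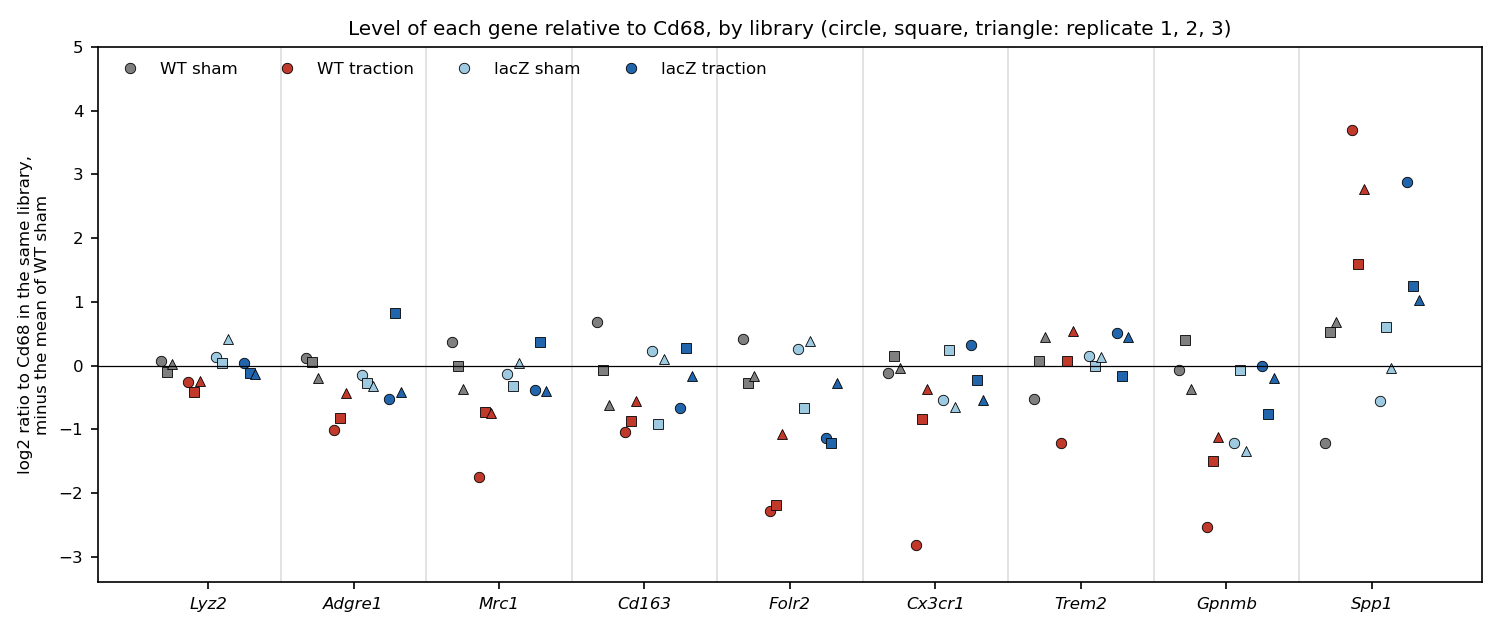
Log2 ratio of each macrophage gene to Cd68 in the same library, minus the mean ratio of the Tem1WT/WT sham group (y axis), with circle, square and triangle for replicates 1, 2 and 3. Lyz2 has the narrowest spread, Folr2 and Gpnmb lie below 0 in all 3 Tem1WT/WT traction libraries, and Spp1 lies above it in all 6 traction libraries.

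Among themselves, some members moved together across the 12 libraries. Cd68 and Lyz2 had a Pearson r of 0.919 (Spearman 0.923), and 0.954 once group means were taken out. Mrc1 and Cd163 had 0.82 (Spearman 0.818, 0.834 within groups), and Adgre1 had 0.782 with Mrc1 (0.816 within groups) and 0.766 with Cd163 (0.755 within groups). Gpnmb and Cx3cr1 had 0.773 (Spearman 0.741, 0.774 within groups). The lowest value of any pair was -0.533 for Spp1 and Folr2 (Spearman -0.413), which was -0.182 within groups. Cd68 and Spp1 had 0.683 over all libraries and 0.109 within groups. These are descriptions over 12 libraries that share groups and normalization, with no p.

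By the same measure, the genes most like each member were found among 13636 genes. For Cd68 they were Tnfaip8l2, Klhl6 and Tm6sf1 (Pearson r 0.979, 0.963 and 0.959), and for Lyz2 they were Calcrl, Naip5 and Gda (0.932, 0.925 and 0.925). For Spp1 the closest was Smap1 (0.961, and 0.844 within groups). For Gpnmb they were Lsamp, Lonrf3 and Tmem150c (0.896, 0.875 and 0.848), and for Trem2 they were Prcp, Lipa and Lrch2 (0.886, 0.884 and 0.879). The resident markers were closest to other genes: Folr2 to Alox15, Cpq and Ebf2 (0.938, 0.935 and 0.925), Mrc1 to Tmem106b, Slc25a36 and Lyl1 (0.953, 0.92 and 0.913), and Cd163 to Etv1, Tshz2 and Sned1 (0.931, 0.922 and 0.918). Adgre1 was closest to Adamts5, Syt15 and Vps9d1 (0.941, 0.917 and 0.916), and Cx3cr1 to Cdk15, Rab30 and Krt10 (0.922, 0.909 and 0.90).

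Other genes of the same cells were read from supporting lists, none of which contains a member. Of 22 further monocyte and macrophage lineage genes, 3 rose with traction in Tem1WT/WT mice, none fell and 19 did not pass, with a median log2 fold change of 0.61. Cd14, the lipopolysaccharide co-receptor, rose from 20.7, 14.6 and 33.2 to 979, 55.9 and 93.7 CPM (log2 fold change 4.04, SE 0.95, adjusted p = 0.0349). Tyrobp, the adaptor through which TREM2 signals, rose from 27.0, 22.4 and 41.0 to 105, 58.8 and 50 CPM (1.24, SE 0.34, adjusted p = 0.0461). The integrin subunit Itgam (1.76, adjusted p = 0.0719), the transcription factor Spi1 (1.52, adjusted p = 0.0549) and the Fc receptor Fcgr3 (1.41, adjusted p = 0.0782) did not pass. The summed level of the 22 genes was 2531 to 3814 CPM in sham and 4075 to 6695 CPM in traction scars of Tem1WT/WT mice, without overlap. Tyrobp was chosen for naming after its values were seen.

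Of 16 tested genes of resident perivascular macrophages, 1 rose, 1 fell and 14 did not pass, with a median log2 fold change of -0.41. Mgl2, a galactose-type lectin, fell from 115, 34.7 and 48.3 to 12.4, 17.6 and 19.9 CPM (log2 fold change -1.99, SE 0.43, adjusted p = 0.032). Stab1, a scavenger receptor named after its values were seen, rose from 110.2, 135 and 169.7 to 236, 366 and 471 CPM (1.37, SE 0.38, adjusted p = 0.0487). Wfdc17 (1.80, adjusted p = 0.0515), Cd209g (-1.42, adjusted p = 0.214) and Cd209f (-1.40, adjusted p = 0.197) did not pass. The summed level overlapped, at 1246 to 1857 CPM in sham and 1041 to 1894 CPM in traction scars.

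Of 21 further genes of lipid-associated and scar-associated macrophages, 2 rose, none fell and 19 did not pass (median 0.32). Hmox1, the haem-degrading oxygenase, rose from 135, 124 and 189 to 699, 979 and 382 CPM (log2 fold change 2.20, SE 0.31, adjusted p = 0.0184), and Cd63, a lysosomal tetraspanin named after its values were seen, rose by 0.96 (SE 0.20, adjusted p = 0.03). Lpl, the lipoprotein lipase that adipocytes also make, was at 464, 528 and 655 CPM in sham and 222, 149 and 93.0 CPM in traction libraries (-1.83, adjusted p = 0.162). Olr1 and Clec7a owed their values to 1 library: Clec7a was at 27.2, 18.4 and 52.7 CPM in sham and 796, 42.7 and 23.4 CPM in traction libraries (3.13, adjusted p = 0.0937), and the log2 fold change of Olr1 was 4.53 (adjusted p = 0.0727).

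Of 14 recruited monocyte genes, 4 rose, none fell and 10 did not pass (median 1.21). Thbs1, thrombospondin 1, rose from 189, 204 and 234 to 2905, 973 and 891 CPM (log2 fold change 2.93, SE 0.51, adjusted p = 0.0252), and Chil3 (3.45, adjusted p = 0.0329) and Il1b (6.42, adjusted p = 0.0432) rose as well. The interleukin gene Il1b stood at 3698, 86.0 and 84.9 CPM in the traction libraries against 5.90, 6.53 and 32.6 CPM in sham. Thbs1 and Il1b are also expressed by neutrophils or stromal cells, and the neutrophil markers moved with them: 6 of 12 tested rose, none fell, and their sum was 64.4 to 110.3 CPM in sham and 302 to 6889 CPM in traction scars. Of the neutrophil markers, Csf3r was at 954, 285 and 51.6 CPM and S100a9 at 3935, 125 and 141 CPM in the traction libraries. S100a9 (3935 CPM) and S100a8 (1296 CPM) made up most of the neutrophil sum of traction replicate 1. Which cells gave the values of these genes was not tested. Camp, Ltf and Mpo did not pass in edgeR (adjusted p = 0.221, 0.171 and 0.568), and Ly6g, Ngp and Elane were too low to be tested. Over the 12 libraries the Pearson r with the neutrophil sum was 0.835 for Spp1, 0.544 for Cd68, 0.435 for Lyz2, -0.585 for Folr2 and -0.64 for Cx3cr1. Traction replicate 1 of Tem1WT/WT held the highest neutrophil sum (6889 CPM), the highest Spp1 (1019 CPM) and the lowest Cx3cr1 (1.81 CPM) of the 12. The r was not calculated without that library. Without traction replicate 1, 2 of the 12 neutrophil markers passed, and the log2 fold change was 2.49 (adjusted p = 0.134) for Il1b and 2.14 (adjusted p = 0.0611) for Chil3. The part of neutrophils in these values and in Lyz2 and Spp1 was not tested.

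The ligands and receptors through which the members act gave 1 call among 14 genes tested. Csf1, the growth factor of macrophages, rose from 62.2, 48.0 and 52.6 to 231, 91.6 and 114 CPM (log2 fold change 1.42, SE 0.36, adjusted p = 0.0386). Itgb3, an integrin subunit that binds osteopontin, was at 28.9, 40.3 and 62.7 CPM in sham and 89.0, 62.9 and 126 CPM in traction libraries (1.07, adjusted p = 0.084). Hp, the haptoglobin whose complex with haemoglobin is the ligand of CD163, had a log2 fold change of 2.39 (adjusted p = 0.174) that rested on traction replicate 1, at 2908 CPM against 118 and 290.2 CPM in the other two. Csf2ra (1.37, adjusted p = 0.104) did not pass either. Of 10 tested paralogs of the members, Trem1 (6.61, adjusted p = 0.0252) and Mrc2 (1.51, adjusted p = 0.0396) rose and Adgre4 fell by 1.54 (adjusted p = 0.0492), while Lyz1 had -2.50 (adjusted p = 0.0859). Neutrophils are among the cells that carry Trem1, and fibroblasts are among those that carry Mrc2. Which cells gave these values was not tested.

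These list calls leaned on single libraries. Of 189 list genes tested, 31 passed with traction in Tem1WT/WT mice, beside 9.15% of all genes, and 12 passed without traction replicate 1. With all libraries, 82 had an unadjusted p under 0.05 (beside 31.4% of all genes). DESeq2 called 60 (beside 4047 of all genes) and limma-voom called 15 (beside 748). Among the 22 lineage genes DESeq2 called 8, with Itgam, Spi1 and Fcgr3 among them, and limma-voom called 0. In the resident, lipid-associated, recruited monocyte and ligand lists DESeq2 called 4, 4, 5 and 6, and limma-voom called 1, 2, 2 and 0. The edgeR list counts above (3 of 22, 2 of 16, 2 of 21, 4 of 14 and 1 of 14) stand beside 9.15% of all genes. The same share stands beside the neutrophil (6 of 12), paralog (3 of 10) and dendritic cell lists (4 of 11). It also stands beside the melanocyte (2 of 8), fibroblast (2 of 11) and mast cell lists (2 of 8). Without traction replicate 1 the lineage, resident and ligand lists had 0 calls, with Cd14 at 1.69 (adjusted p = 0.0523), Tyrobp at 0.84 (adjusted p = 0.123), Mgl2 at -1.83 (adjusted p = 0.0619), Stab1 at 1.58 (adjusted p = 0.0546) and Csf1 at 0.90 (adjusted p = 0.0894). The call of Cd63 was lost too (0.95, adjusted p = 0.0509), as was that of Adgre4 (-1.39, adjusted p = 0.113), while Trem1 (4.18, adjusted p = 0.0345) and Mrc2 (1.75, adjusted p = 0.0458) still passed. Hmox1 was left among the lipid-associated genes and 2 calls, Thbs1 among them, in the recruited monocyte genes, and 3 muscle genes and 1 lymphocyte gene passed that had not before. Without sham replicate 1 or sham replicate 2 of Tem1WT/WT, no gene of the 18853 passed. In the other comparisons edgeR called 0 of the 189 genes. At an unadjusted p under 0.05 the counts were 21 with traction in Tem1lacZ/lacZ mice (beside 8.12% of all genes), 15 between genotypes in sham (11.7%), 62 between genotypes under traction (26.1%) and 31 for the interaction (8.91%). In the same order DESeq2 called 1, 1, 29 and 2 of them, beside 23, 24, 2295 and 69 of all genes. Limma-voom called 8, 0, 0 and 0, beside 435, 1, 16 and 0 of all genes.

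Markers of other cells that express members were read beside them. Gpnmb is made by melanocytes, and their 8 markers summed to 274 to 928 CPM in Tem1WT/WT sham, 124 to 259 CPM in Tem1WT/WT traction, 76.2 to 496 CPM in Tem1lacZ/lacZ sham and 224 to 409 CPM in Tem1lacZ/lacZ traction scars. With traction in Tem1WT/WT mice 2 of the 8 fell, Mlana by 2.06 (adjusted p = 0.0415) and Mitf by 0.72 (adjusted p = 0.0431), the latter named after its values were seen. The log2 fold changes of Tyr (-2.05), Slc45a2 (-1.85) and Oca2 (-1.81) did not pass. All 8 fold changes were negative there (median -1.77) and all 8 interaction values were positive (median 1.90), the signs that Gpnmb had. The 8 skeletal muscle markers had the same signs (medians -2.91 and 2.37), so these signs were not seen in the melanocyte markers alone. With traction in Tem1lacZ/lacZ mice the median of the melanocyte markers was 0.13 and Gpnmb was at 0.91. Neither Mlana (-1.87, adjusted p = 0.0898) nor Mitf (-0.68, adjusted p = 0.0983) passed without traction replicate 1, and limma-voom called none of the 8 melanocyte markers. Over the 12 libraries the Pearson r between Gpnmb and the melanocyte sum was 0.533, and between Gpnmb and the neutrophil sum it was -0.542. Gpnmb was lowest in traction replicate 1 of Tem1WT/WT (103 CPM), and neither r was calculated without that library. The part of melanocytes in the values of Gpnmb was not tested.

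Osteoclasts also make Spp1 and Gpnmb. None of their 8 markers passed in edgeR with traction in Tem1WT/WT mice, beside 9.15% of all genes. Their sum was 387 to 754 CPM in sham and 415 to 606 CPM in traction scars. In edgeR 3 of the 8 had an unadjusted p under 0.05, beside 31.4% of all genes. DESeq2 called 1 (Nfatc1, beside 4047 of all genes) and limma-voom called 0 (beside 748). Atp6v0d2 (-1.15), Nfatc1 (0.69), Acp5 (0.53) and Ctsk (-0.25) were among the 8 markers. Of 11 fibroblast markers 2 rose, with Pdgfra at 1.45 (adjusted p = 0.0329) and Fbln1, named after its values were seen, at 0.90 (adjusted p = 0.0326), and their sum was 28693 to 48708 CPM in sham and 47109.7 to 122510 CPM in traction scars. Neither passed without traction replicate 1, with Pdgfra at 0.95 (adjusted p = 0.0621) and Fbln1 at 0.94 (adjusted p = 0.0519). Dendritic and Langerhans cell genes, which share surface receptors with macrophages, had 1 that rose and 3 that fell of 11 tested. Xcr1 (-2.11, adjusted p = 0.0252), Cd207 (-1.76, adjusted p = 0.0403) and Cd209a (-1.43, adjusted p = 0.0278) fell, and the actin bundler Fscn1 rose by 1.64 (adjusted p = 0.0296). Without traction replicate 1 the call of Xcr1 remained (-2.48, adjusted p = 0.0384), whereas Cd207 (-1.55, adjusted p = 0.0846), Cd209a (-1.36, adjusted p = 0.0522) and Fscn1 (1.6, adjusted p = 0.0515) did not pass.

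The other lists had few calls with traction in Tem1WT/WT mice. Among 8 mast cell markers Hdc rose (5.63, adjusted p = 0.0353), with 1009 CPM in traction replicate 1, and Ms4a2 fell by 1.28 (adjusted p = 0.0355). Without that library Hdc was at 2.08 (adjusted p = 0.0554) and Ms4a2 at -1.34 (adjusted p = 0.0629), and neither passed. None passed in edgeR of 6 lymphatic endothelial, 10 lymphocyte, 7 keratinocyte, 6 adipocyte and 8 skeletal muscle genes, beside 9.15% of all genes. At an unadjusted p under 0.05 in edgeR the counts in these lists were 3, 1, 2, 0 and 8, beside 31.4% of all genes. DESeq2 called 2, 1, 1, 0 and 5 (beside 4047 of all genes). Limma-voom called 1 muscle gene and none of the others (beside 748 of all genes). Lymphatic Lyve1, which resident macrophages also carry, was at 54.1, 39.3 and 50.1 CPM in sham and 77.9, 36.7 and 48.5 CPM in traction libraries (0.18, adjusted p = 0.789). The skeletal muscle sum was highest in sham replicate 1 of Tem1WT/WT, at 8943 CPM, the library with the lowest Spp1. Over the 12 libraries the Pearson r with the muscle sum was -0.707 for Trem2 and -0.601 for Spp1. The part of muscle in the values was not tested.

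**Figure D4:**
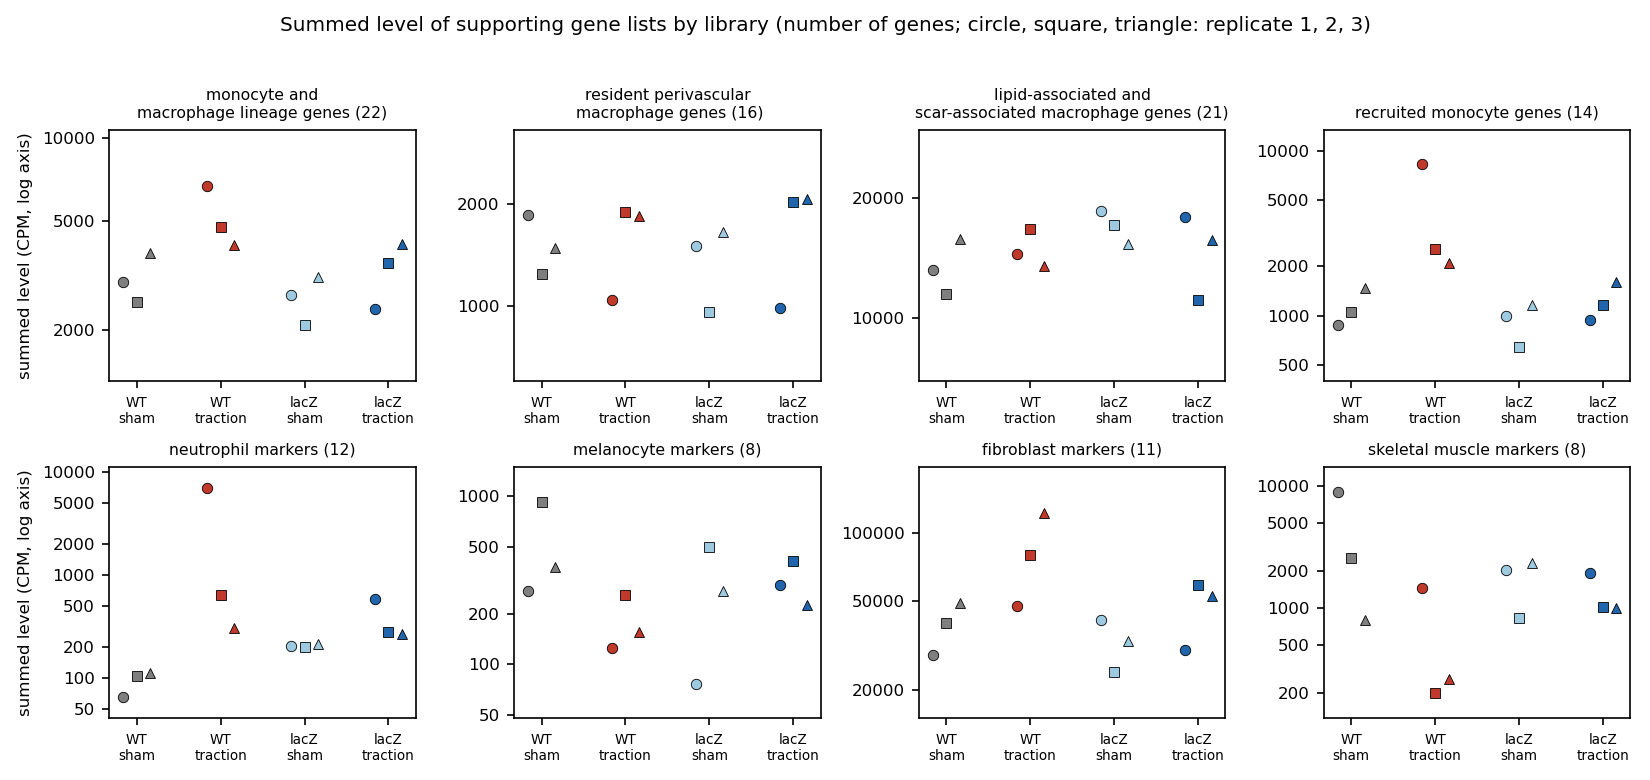
Summed level of 8 supporting gene lists in each library, in CPM on a log axis, with the number of genes in brackets and circle, square and triangle for replicates 1, 2 and 3. The lineage sum of the Tem1WT/WT traction libraries (4075 to 6695 CPM) lies above that of their sham libraries (2531 to 3814 CPM), the resident sum overlaps, and traction replicate 1 stands out in the neutrophil panel at 6889 CPM.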

How the data were processed

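The authors deposited raw read counts per gene for 12 libraries of mouse scar (TruSeq Stranded mRNA libraries, paired-end reads). Per the labels, that is the submitters' processing notes, the tools were fastp 0.20.0, HISAT2 2.1.0 and featureCounts 2.0.0 on GRCm38. The gene annotation and the strand and multimapping settings are not given in the sources used here. The study's own methods used DESeq2. Groups were taken from the sample titles. No pair of libraries within a group agreed within sampling noise (smallest chi-square per gene 92.7), so all 12 were kept.

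Genes were filtered by filterByExpr, scaled by TMM and fitted with the robust quasi-likelihood test of edgeR 4.0.16 (R 4.3.3) in 1 model of the 4 groups, two-sided, with Benjamini-Hochberg adjustment over 18853 genes and a threshold of 0.05. The standard error is the absolute log2 fold change divided by the square root of F. Total counts of 41536788 to 64644293 set the precision, and counting error is small beside the spread between libraries. The scripts were tested on simulated data. Likeness used Pearson's r of log2 CPM with a prior count of 2.

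The members and the supporting lists were chosen with earlier results of these data known. Named genes were all 10 members, up to 4 genes per list with the largest absolute change with traction in Tem1WT/WT mice (mean log2 CPM no lower than 1), and the 3 genes most like each member. Other called list genes were chosen after their values were seen, and a few genes that these rules name are not reported here. Exon lengths, positions and promoters came from annotation of GRCm38.p6. Alternatives were a filter of at least 1 count, DESeq2 size factors, upper-quartile scaling, DESeq2 1.42.0, limma-voom 3.58.1 with sample weights, a replicate block, only the libraries compared, and leaving out each library in turn.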

Additional observations from a re-analysis of the deposited data

How the results depend on the processing

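With traction in Tem1WT/WT mice, 1 member passed in edgeR, 2 with DESeq2, 0 with only the 6 libraries compared, and 0 to 1 when each library was left out. Between genotypes under traction 0 passed in edgeR and 1 with DESeq2. Over all genes, 1725 passed with traction in Tem1WT/WT mice (61.3% higher), 1011 with the filter of at least 1 count, 4047 with DESeq2, 748 with limma-voom (83% higher), 1673 with upper-quartile scaling (43.9% higher, median of all genes -0.12), 0 with only 6 libraries and 0 to 2861 with a library left out, among them 360 without traction replicate 1. DESeq2 called 23, 24, 2295 and 69 genes with traction in Tem1lacZ/lacZ mice, between genotypes in sham, between genotypes under traction and for the interaction, where edgeR called 0, 2, 20 and 0. Leaving out 1 library gave 3 to 1421 genes between genotypes under traction, the highest without traction replicate 2 of Tem1WT/WT, 0 to 73 with traction in Tem1lacZ/lacZ mice (73 without traction replicate 1 of Tem1lacZ/lacZ), 1 to 2 between genotypes in sham and 0 to 31 for the interaction (31 without traction replicate 2 of Tem1WT/WT). Limma-voom called 435 with traction in Tem1lacZ/lacZ mice. The cause was not tested.

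Signs turned in the following values. With traction in Tem1WT/WT mice Cd163 was 0.0041 with DESeq2 size factors, 0.0040 with DESeq2 and 0.185 with limma-voom, Mrc1 was 0.0409 with limma-voom, and Adgre1 was -0.0224 with upper-quartile scaling (0.097 relative to the median of all genes). With traction in Tem1lacZ/lacZ mice Lyz2 was 0.0332 with the filter of at least 1 count, 0.00941 with DESeq2 size factors and with DESeq2, and 0.00692 with limma-voom. Between genotypes in sham Lyz2 was -0.0038 with the filter of at least 1 count and Folr2 was 0.134 with limma-voom. Between genotypes under traction Cd163 was 0.0242 with the filter of at least 1 count, 0.122 with upper-quartile scaling (-0.022 relative to the median of all genes, itself 0.14), 0.156 with limma-voom and 0.0181 with only 6 libraries.

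With the replicate block, 1467 genes passed with traction in Tem1WT/WT mice and 15 between genotypes under traction, Cd163 was 0.0215 with traction in Tem1WT/WT mice and Lyz2 was 0.0162 in Tem1lacZ/lacZ mice. The labels do not say that a number marks a shared animal, batch or day, and same-numbered libraries correlated at -0.324 to 0.25 (median 0.0895), against -0.403 to 0.373 (median -0.0192) for other numbers, so the numbers were not taken to pair the libraries. As a hint from the data only, 8 of 12 libraries were closest to their own number. The block changed no call of a member.

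When each library was left out, values whose sign turned spanned, with traction in Tem1WT/WT mice, -0.0176 to 0.261 for Adgre1, -0.444 to 0.0747 for Mrc1, -0.171 to 0.295 for Cd163 and -0.514 to 0.169 for Cx3cr1. With traction in Tem1lacZ/lacZ mice they spanned -0.0181 to 0.545 for Cd68, -0.112 to 0.6 for Cd163 and -0.292 to 0.323 for Lyz2. Between genotypes in sham they spanned -0.37 to 0.0932 for Cd68, -0.507 to 0.122 for Cd163, -0.904 to 0.23 for Spp1, -0.503 to 0.409 for Trem2, -0.425 to 0.289 for Folr2 and -0.282 to 0.334 for Lyz2. Under traction they spanned -0.294 to 0.469 for Adgre1, -0.0454 to 0.468 for Mrc1, -0.289 to 0.361 for Cd163, -0.401 to 0.769 for Folr2 and -0.235 to 0.448 for Cx3cr1. For the interaction they spanned -0.0923 to 0.619 for Cd163, -0.723 to 0.19 for Trem2 and -0.346 to 0.882 for Folr2.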
